A study of Homo sapiens with 6 samples.

Results

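The genes described are 50 genes of the G2 phase and of mitosis, taken as a named list of cell cycle regulators, spindle and kinetochore proteins and cytokinesis factors. All 50 were found by symbol among the 29810 genes of the deposited table. There were 3 samples of Kasumi-1 kept with I1 at 0.125 µM for 48 h and 3 kept with control for 48 h. Kasumi-1 is an established line of human acute myeloid leukaemia, made of immature myeloblasts that carry the t(8;21) translocation, and both groups are this single line. Of I1 only the code name is known, and what the control received is not given beyond that word. Levels are given as FPKM, in which fragments are scaled to the length of the gene and to the size of the library, so they can be set against each other between genes.

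A cell enters mitosis when cyclin B and cyclin A bind the kinase CDK1 and CDC25 phosphatases remove its inhibiting phosphates. Aurora and Polo-like kinases then build the spindle, kinetochores attach chromosomes to it, and the spindle checkpoint holds the cell until every chromosome is attached. The anaphase-promoting complex, a ubiquitin ligase switched on by CDC20, then destroys securin and cyclin B, after which chromatids part and the cell divides. Most of these genes are transcribed only in G2 and mitosis, by B-MYB (gene MYBL2) with the MuvB complex and by FOXM1, and are repressed in resting cells by the DREAM complex. Their promoters are known for a short element called the CHR and for CCAAT boxes, which NF-Y binds. In bulk RNA, a smaller share of cells in mitosis and less of a transcript per cell cannot be told apart.

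Promoter sequences were taken from RefSeq on GRCh38.p14, from 250 bases before to 50 bases after the start of the gene, and 42 of the 50 members had one. The CHR was searched as TTTGAA or TTCGAA and the CCAAT box as CCAAT, on both strands, with overlapping matches counted one by one. A CHR match was present in 30 of the 42 promoters (71.4%). Such a match stood in 16.6% of all 27305 promoters of the same length, and in 11.1% of the 8445 promoters of genes tested below. Among 45 promoters of other mitotic and kinetochore genes 27 held one (60.0%), and 28.9% held both a CHR match and at least 2 CCAAT boxes. The 21 promoters of DNA replication genes held one in 2 cases (9.52%), although CCAAT boxes were about as common in them (66.7%) as in the members (76.2%) and more so than in all promoters (35.7%). Both a CHR match and at least 2 CCAAT boxes stood in 15 of the 42 (35.7%), against 1.98% of all promoters. The CHR matches of the members lay at a median of 26 bases before the start and the CCAAT boxes at a median of 74 bases before it. A match is a description of letters and no evidence of binding.

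Of these promoters, 5 are shown, read from 5′ to 3′ on the strand of the gene, which is the plus strand for all 5, with CHR and CCAAT matches on either strand in capitals. They belong to CCNB2, a cyclin of CDK1, to the members with the largest positive fold changes (KIF20B and HMMR) and to those with the largest negative ones (CDC20 and MYBL2). They lie at chr15:59104896-59105195 (CCNB2), chr10:89701340-89701639 (KIF20B), chr5:163460382-163460681 (HMMR), chr1:43358731-43359030 (CDC20) and chr20:43666864-43667163 (MYBL2).
CCNB2: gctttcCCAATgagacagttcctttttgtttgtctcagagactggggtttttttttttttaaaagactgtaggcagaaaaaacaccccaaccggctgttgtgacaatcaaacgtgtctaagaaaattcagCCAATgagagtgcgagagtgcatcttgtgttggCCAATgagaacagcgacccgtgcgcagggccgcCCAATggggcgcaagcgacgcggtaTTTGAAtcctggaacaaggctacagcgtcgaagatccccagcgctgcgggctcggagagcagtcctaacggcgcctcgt
KIF20B: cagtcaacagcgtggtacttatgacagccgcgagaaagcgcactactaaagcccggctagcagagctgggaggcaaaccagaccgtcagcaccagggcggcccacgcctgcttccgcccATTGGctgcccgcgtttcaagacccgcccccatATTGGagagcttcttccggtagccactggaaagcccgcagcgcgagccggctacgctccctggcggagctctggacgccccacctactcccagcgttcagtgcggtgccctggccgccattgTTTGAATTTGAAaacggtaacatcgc
HMMR: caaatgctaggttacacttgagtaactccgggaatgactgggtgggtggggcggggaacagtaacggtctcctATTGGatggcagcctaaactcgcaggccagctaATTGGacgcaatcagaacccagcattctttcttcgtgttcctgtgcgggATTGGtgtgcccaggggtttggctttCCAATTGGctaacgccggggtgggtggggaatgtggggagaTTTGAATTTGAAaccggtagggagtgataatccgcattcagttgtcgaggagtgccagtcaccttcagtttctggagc
CDC20: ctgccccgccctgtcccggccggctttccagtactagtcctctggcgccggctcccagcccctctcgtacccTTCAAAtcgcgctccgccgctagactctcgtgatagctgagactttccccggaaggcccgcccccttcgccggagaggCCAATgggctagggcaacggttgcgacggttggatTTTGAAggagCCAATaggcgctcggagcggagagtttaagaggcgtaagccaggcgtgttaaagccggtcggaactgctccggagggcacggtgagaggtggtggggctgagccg
MYBL2: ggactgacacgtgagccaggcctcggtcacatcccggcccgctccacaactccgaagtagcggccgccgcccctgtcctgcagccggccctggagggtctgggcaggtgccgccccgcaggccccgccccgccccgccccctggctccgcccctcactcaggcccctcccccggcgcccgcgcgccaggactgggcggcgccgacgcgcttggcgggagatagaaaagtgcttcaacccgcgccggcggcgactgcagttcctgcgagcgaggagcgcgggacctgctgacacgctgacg
CCNB2 had 1 CHR match, 29 bases before the start, and 4 CCAAT boxes. KIF20B and HMMR each had 2 CHR matches in a row, after the start in KIF20B and 28 and 22 bases before it in HMMR. CDC20, with a fold change of the opposite sign, also had both elements, with 2 CHR matches and 2 CCAAT boxes. MYBL2 had neither in this window, and its window was 75.3% G and C, against 61.5% in the median member.

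The library totals behind the values were 16391000 to 16948000 fragments with I1 and 17331000 to 18204000 in control. Each of the 48 members with recovered whole reads had at least 62 reads in every library and at most 16399; the fewest belonged to SGO1, whose values carry the most counting error. All 5 markers of this line (MPO, KIT, CD34, RUNX1T1 and CD33) were present, at 9.89 FPKM or more in every library. Of 15 marker genes of other cell types 10 were measured, and apart from EPCAM (23.2 to 31.3 FPKM) they stayed at or below 1.61 FPKM, with HBA1 at 0 in every library; the other 5 were not analysed here. The summed level of those 9 was 1.02, 2.35 and 2.47 FPKM with I1, against 1.86, 1.97 and 2.14 FPKM in control. Control replicate 1 stood apart from the other libraries, and the medians of the gene groups are given with and without it. The labels do not say whether the 3 samples of each group were grown separately, so p-values cover only how far these samples differ, possibly for technical reasons.

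The comparison asked whether transcripts of the mitotic programme differed after 48 h with I1. None of the 50 members passed the test, and nearly all were expressed in both groups: 49 members had at least 1 FPKM in all 6 libraries, and 45 lay above the median of the tested genes. The summed level of the 50 was 1257.1, 1546.3 and 1150.5 FPKM in I1 replicates 1 to 3, against 1078.5, 1505.7 and 1334.1 FPKM in control replicates 1 to 3, and the groups overlap. Fold changes ran from -0.34 for CDC20 to 0.60 for KIF20B on the log2 scale. Kinetochore, checkpoint and most spindle genes lay on the positive side, and the anaphase, passenger and transcription factor genes mostly on the negative side. Without control replicate 1 the medians of the kinetochore, spindle motor and checkpoint genes were 0.03, 0.01 and -0.01. Those of the anaphase, passenger and transcription factor genes were -0.19, -0.19 and -0.23. The fold changes also followed GC content, with a Spearman's rho of -0.895 across the members.

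The test was limma on log2(FPKM + 1) over 11913 genes, and a call needed a Benjamini-Hochberg adjusted p under 0.05 together with at least a 2-fold change in either direction. By it, 0 of 50 members were called, beside 4 of all tested genes (0.0336%), and the smallest adjusted p of a member was 0.467. At an unadjusted p under 0.05 there were 2 members, against 9.57% of all tested genes, a larger share than in the members. They were SGO1, higher with I1 as 6.8% of all genes were at this level, and MYBL2, lower with I1 as 2.77% were. The groups did not overlap for the same 2 members, against 21.6% of all tested genes (12.9% higher and 8.74% lower with I1). The log2 fold change was above 0 for 32 members and below 0 for 18, where 54.5% of all tested genes were above 0. The unadjusted 95% interval of the fold change lay inside a 2-fold change in either direction for 46 members (92%), against 90.4% of all tested genes. The others were KIF20B, HMMR, CENPE and ANLN, whose upper limits were 1.41, 1.10, 1.15 and 1.02. With a smallest adjusted p of 0.467, the 2-fold limit alone kept no member from a call. With 3 samples a group the missing calls do not show equal levels.

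**Figure D1:**
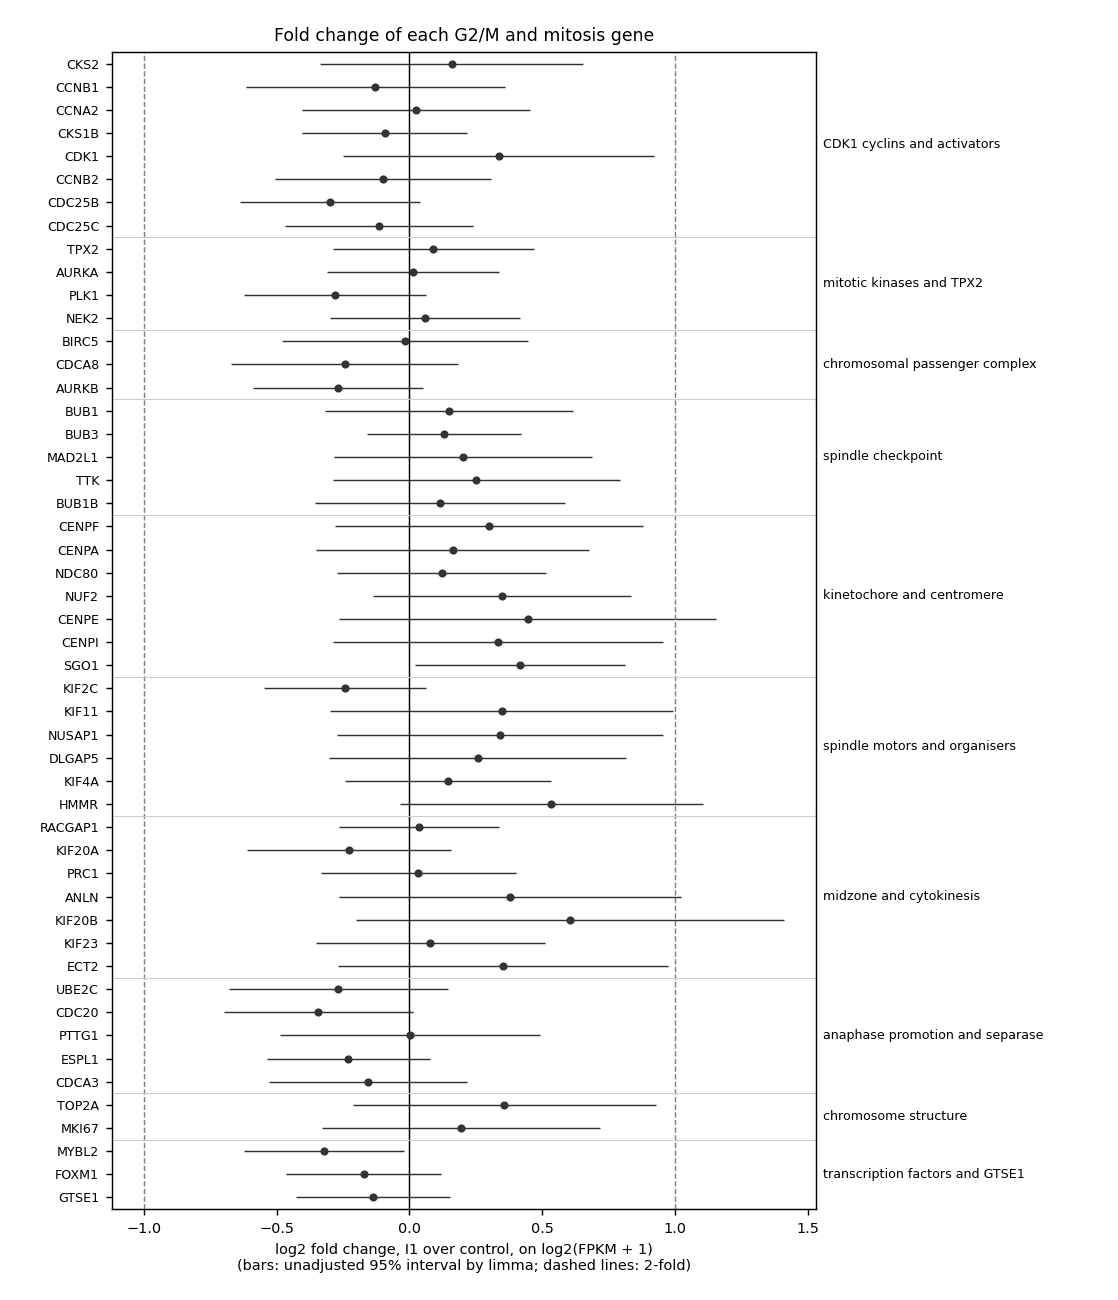
Log2 fold change of each of the 50 genes, I1 over control, on log2(FPKM + 1), by role and in falling order of level within a role. Points are limma estimates and bars their unadjusted 95% intervals (3 samples a group); dashed lines mark 2-fold changes. Only the bars of SGO1 and MYBL2 leave out 0. Of the 50 bars 46 stay inside the dashed lines, as did the intervals of 90.4% of all tested genes.

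In the reported fit the genes that switch CDK1 on showed no common direction. Of 8 such genes, 3 had a log2 fold change above 0 and 5 below, with a median of -0.10 and 0 called. Without control replicate 1 the median was -0.16, with 1 of 8 genes above 0. After a correction for GC content it was -0.17, with 0 of 8 above 0. In the order of replicates 1, 2 and 3, CKS2, a small subunit that binds CDK1 and the most abundant member of all, had 90.6, 126 and 117 FPKM with I1, against 73.1, 123 and 106 FPKM in control. CCNB1, the cyclin of mitotic entry, had 48.1, 65.5 and 39.8 FPKM with I1, against 46.3, 68.0 and 52.4 FPKM in control. For both genes replicate 2 was the highest sample of its group and the groups overlapped, with log2 fold changes of 0.16 ± 0.21 (SE, limma adjusted p = 0.707) for CKS2 and -0.13 ± 0.21 (SE, limma adjusted p = 0.756) for CCNB1. CDC25B, a phosphatase that activates CDK1 and one of the 3 most negative fold changes, had 25.4, 20.3 and 19.9 FPKM with I1, against 31.2, 24.5 and 25.7 FPKM in control. Only I1 replicate 1 reached into the range of the controls, and the log2 fold change was -0.30 ± 0.15 (SE, limma adjusted p = 0.467).

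CDK1 itself and CCNB2 fell outside the rule for genes given sample by sample and were added after their values were seen. CDK1, the kinase of mitotic entry, had 33.0, 47.5 and 35.8 FPKM with I1, against 20.9, 42.6 and 30.8 FPKM in control. Each I1 sample was above the control of the same number, but the groups overlapped, and its log2 fold change of 0.34 ± 0.25 (SE, limma adjusted p = 0.533) was 0.08 without control replicate 1 and -0.03 after a correction for GC content. CCNB2, a second B-type cyclin, had 31.3, 38.5 and 24.9 FPKM with I1, against 29.2, 37.6 and 33.8 FPKM in control, with a log2 fold change of -0.10. The remaining 3 genes of this role, CCNA2, CKS1B and CDC25C, had log2 fold changes between -0.11 and 0.02; CDC25C, a phosphatase that activates CDK1, was among the least abundant members at 3.43 ± 0.581 FPKM with I1 and 3.79 ± 0.481 FPKM in control (SD, n = 3 each).

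**Figure D2:**
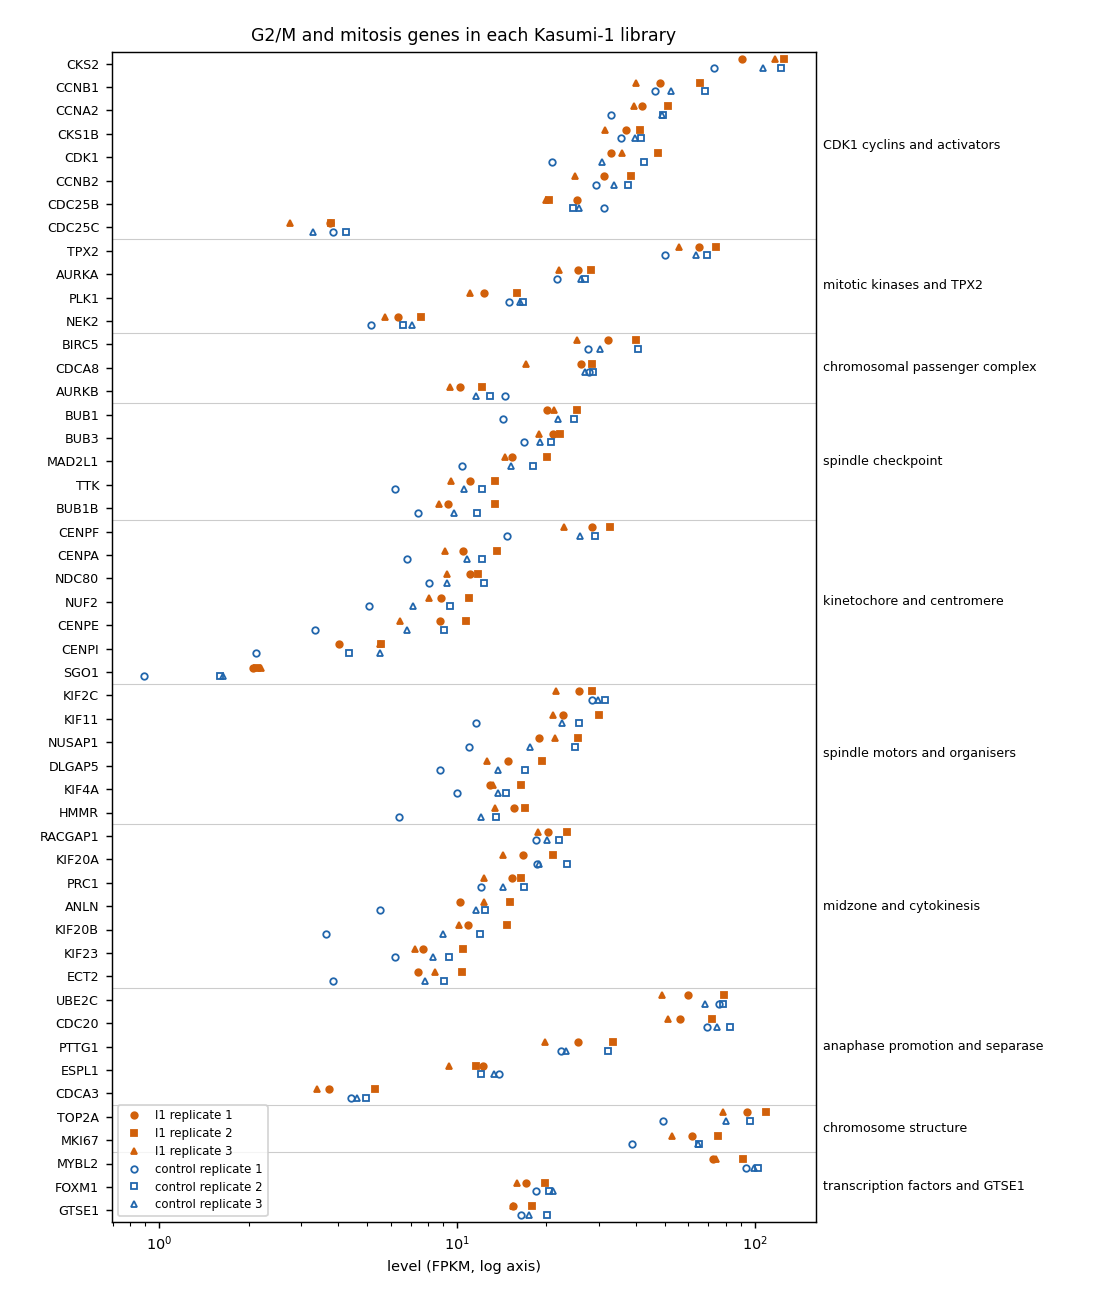
Level of each of the 50 genes in FPKM on a log axis, by role. Filled orange marks are the I1 samples and open blue marks the control samples, with circles, squares and triangles for replicates 1, 2 and 3. Squares lie to the right in most rows of both groups, and the open circle of control replicate 1 lies far to the left for KIF20B, CENPE, HMMR and other genes.

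Among the mitotic kinases, TPX2, which activates Aurora A and carries it to the spindle, was the most abundant, with 64.9, 74.1 and 55.6 FPKM with I1, against 50.1, 69.2 and 63.8 FPKM in control. AURKA, Aurora A itself, had 25.5, 28.3 and 22.0 FPKM with I1, against 21.8, 26.9 and 26.2 FPKM in control. Both groups overlapped for each of these 2 genes, and the log2 fold changes were 0.09 ± 0.16 (SE, limma adjusted p = 0.781) for TPX2 and 0.01 ± 0.14 (SE, limma adjusted p = 0.964) for AURKA. NEK2, a centrosome kinase, had a log2 fold change of 0.06. PLK1, the Polo-like kinase, had -0.28 and was lower with I1 in 3 of 3 pairs, which left this role with 3 genes above 0, 1 below and a median of 0.04. Without control replicate 1 the median was -0.07 with 0 of 4 genes above 0, and after the GC correction it was -0.10 with 1 above 0.

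All 3 genes of the chromosomal passenger complex, which corrects wrong attachments of the spindle, had a log2 fold change below 0, with a median of -0.24, -0.19 without control replicate 1, and 0 were called. BIRC5, or survivin, had 32.1, 39.9 and 25.4 FPKM with I1, against 27.6, 40.5 and 30.2 FPKM in control. CDCA8, or borealin, had 26.1, 28.4 and 17.1 FPKM with I1, against 27.8, 28.7 and 27.0 FPKM in control. The value of BIRC5 lay close to 0 at -0.02 ± 0.20 (SE, limma adjusted p = 0.969), while that of CDCA8, -0.24 ± 0.18 (SE, limma adjusted p = 0.535), rested on I1 replicate 3: it ranged from -0.03 to -0.38 when single samples were left out. AURKB, the kinase of the complex, had 10.6 ± 1.37 FPKM with I1 and 13.0 ± 1.47 FPKM in control (SD, n = 3 each), a log2 fold change of -0.27 ± 0.14 (SE, limma adjusted p = 0.467), and was lower in 3 of 3 pairs.

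All 5 genes of the spindle checkpoint had a log2 fold change above 0, between 0.11 and 0.25 with a median of 0.15, and 0 were called. BUB1, a checkpoint kinase at the kinetochore, had 20.1, 25.3 and 21.3 FPKM with I1, against 14.3, 24.8 and 21.9 FPKM in control. BUB3, which brings BUB1 and BUBR1 to the kinetochore, had 21.1, 22.2 and 18.9 FPKM with I1, against 16.8, 20.7 and 19.1 FPKM in control. Control replicate 1 was the lowest of the 6 samples for both, and the groups overlapped. The log2 fold changes were 0.15 ± 0.20 (SE, limma adjusted p = 0.707) for BUB1 and 0.13 ± 0.13 (SE, limma adjusted p = 0.606) for BUB3. Without control replicate 1 the median of the role was -0.01, with 1 of 5 genes above 0. After the GC correction it was -0.06, with 0 above 0, so the direction of the group held in neither setting. The others were TTK, the kinase MPS1 that starts the checkpoint, MAD2L1, which inhibits CDC20, and BUB1B, which encodes BUBR1, with log2 fold changes of 0.25, 0.20 and 0.11.

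Kinetochore and centromere genes gave the highest median of any role, 0.33, with 7 of 7 above 0 and 0 called. CENPF, a large kinetochore protein of late G2, had 28.5, 32.7 and 22.9 FPKM with I1, against 14.7, 29.2 and 25.9 FPKM in control. CENPA, the histone H3 variant that marks centromeres, had 10.5, 13.6 and 9.13 FPKM with I1, against 6.81, 12.2 and 10.8 FPKM in control. Control replicate 1 was lowest for both and the groups overlapped, with log2 fold changes of 0.30 ± 0.25 (SE, limma adjusted p = 0.564) and 0.16 ± 0.22 (SE, limma adjusted p = 0.711). Without that sample CENPF was at 0.01 and CENPA at -0.06. CENPE, a kinesin that moves chromosomes to the spindle equator and one of the 3 largest positive fold changes, had 8.81, 10.8 and 6.44 FPKM with I1, against 3.35, 9.04 and 6.80 FPKM in control. Its log2 fold change was 0.45 ± 0.31 (SE, limma adjusted p = 0.508), and 0.10 without control replicate 1.

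SGO1, or shugoshin, which protects cohesin at centromeres until anaphase, was the least abundant member and was singled out after its values were seen. It had 2.07, 2.13 and 2.20 FPKM with I1, against 0.89, 1.60 and 1.64 FPKM in control, so all 3 I1 samples lay above all controls. Its log2 fold change was 0.42 ± 0.17 (SE, limma adjusted p = 0.467), with an unadjusted p of 0.0421. Without control replicate 1 it was 0.26, with an unadjusted p of 0.0895 by limma. With 0.1 in place of 1 added to each FPKM value it was 0.643, beside 0.681 for KIF20B, 0.579 for HMMR and 0.515 for CENPE. The place of SGO1 among the largest fold changes thus depended on the value added. On hg38 SGO1 spans bases 20160593 to 20186292 of chromosome 3, minus strand. Its exons overlap those of the antisense gene SGO1-AS1, and the sources used here do not say if counting was by strand, so reads of both cannot be told apart. NUF2 and NDC80, which form the microtubule-binding NDC80 complex, had log2 fold changes of 0.35 and 0.12, and CENPI, of the inner kinetochore, had 0.33. Without control replicate 1 NUF2 was at 0.15 and CENPI at 0.03, and the median of the role was 0.03 with 5 of 7 genes above 0.

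Of the 6 spindle motors and organisers, 5 had a log2 fold change above 0 and 1 below, with a median of 0.30 that was 0.01 without control replicate 1. KIF11, the kinesin that pushes spindle poles apart, had 22.8, 30.0 and 21.1 FPKM with I1, against 11.6, 25.8 and 22.5 FPKM in control. KIF2C, a kinesin that takes microtubules apart at centromeres, had 25.7, 28.5 and 21.5 FPKM with I1, against 28.5, 31.4 and 29.7 FPKM in control. Their fold changes differed in sign, at 0.35 ± 0.28 (SE, limma adjusted p = 0.551) for KIF11, 0.01 without control replicate 1, and -0.24 ± 0.13 (SE, limma adjusted p = 0.467) for KIF2C, and KIF2C was lower with I1 in 3 of 3 pairs. HMMR, a spindle protein and hyaluronan receptor, had 15.5, 17.0 and 13.4 FPKM with I1, against 6.41, 13.5 and 12.1 FPKM in control. Only I1 replicate 3 lay within the range of the controls, by a small margin, and the log2 fold change was 0.53 ± 0.25 (SE, limma adjusted p = 0.467), 0.23 without control replicate 1. Exons of HMMR overlap those of the antisense gene HMMR-AS1. NUSAP1, DLGAP5 and KIF4A, which bundle microtubules, stabilise the fibres at kinetochores and shape chromosomes and the midzone, had 0.34, 0.26 and 0.14, and without control replicate 1 0.05, 0.01 and -0.01.

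Of the 7 genes of the spindle midzone and of cytokinesis, 6 had a log2 fold change above 0 and 1 below, with a median of 0.08 and 0 called. RACGAP1, a subunit of centralspindlin, had 20.2, 23.4 and 18.7 FPKM with I1, against 18.4, 22.1 and 20.1 FPKM in control. KIF20A, a kinesin that carries the passenger complex to the midzone, had 16.7, 20.98 and 14.3 FPKM with I1, against 18.5, 23.5 and 18.9 FPKM in control. The groups overlapped for both, with log2 fold changes of 0.04 ± 0.13 (SE, limma adjusted p = 0.897) and -0.23 ± 0.17 (SE, limma adjusted p = 0.522). KIF20B, a kinesin needed for the last step of division and with the largest positive fold change of all members, had 10.9, 14.8 and 10.2 FPKM with I1, against 3.64, 11.9 and 8.97 FPKM in control. Control replicate 1 was far below every other sample, and the log2 fold change of 0.60 ± 0.35 (SE, limma adjusted p = 0.469) was 0.17 without it. ANLN, ECT2, KIF23 and PRC1, which build the contractile ring, activate RhoA, form centralspindlin and bundle midzone microtubules, had 0.38, 0.35, 0.08 and 0.03, and without that sample 0.05, 0.03, -0.07 and -0.08. The median of the role was then -0.03, with 3 of 7 genes above 0, so its sign did not hold without control replicate 1. After the GC correction the median was -0.0016, also with 3 genes above 0. Medians with other samples left out were not computed for single roles.

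The genes that start anaphase lay on the negative side, with 4 of 5 below 0, a median of -0.23 and 0 called. CDC20, the activator of the anaphase-promoting complex and with the most negative fold change of all members, had 56.1, 72.1 and 51.2 FPKM with I1, against 69.2, 82.5 and 74.7 FPKM in control. UBE2C, its ubiquitin-conjugating enzyme, had 59.8, 79.1 and 48.9 FPKM with I1, against 76.0, 78.5 and 68.4 FPKM in control. I1 replicate 2 was the I1 sample within the range of the controls for CDC20, and for UBE2C it lay above all controls. The log2 fold changes were -0.34 ± 0.15 (SE, limma adjusted p = 0.467) for CDC20 and -0.27 ± 0.18 (SE, limma adjusted p = 0.501) for UBE2C. ESPL1, the protease separase, and CDCA3, which helps to degrade the CDK1 inhibitor WEE1, had -0.23 and -0.16, while PTTG1, the securin that holds separase in check, had 0.00. Without control replicate 1 the median of the role was -0.19, of the same sign.

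TOP2A, the topoisomerase that untangles chromatids, had 94.4, 109.6 and 78.3 FPKM with I1, against 49.3, 96.4 and 80.4 FPKM in control. MKI67, the proliferation antigen Ki-67 that coats mitotic chromosomes, had 61.7, 75.6 and 52.7 FPKM with I1, against 38.7, 65.3 and 64.4 FPKM in control. In both, control replicate 1 was the lowest of the 6 samples and the groups overlapped, with log2 fold changes of 0.36 ± 0.25 (SE, limma adjusted p = 0.509) and 0.19 ± 0.23 (SE, limma adjusted p = 0.668). Without that sample the values were 0.08 and -0.05.

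The transcription factors of the programme and GTSE1 all had log2 fold changes below 0, with a median of -0.17, -0.23 without control replicate 1. MYBL2, which encodes B-MYB, had 72.3, 91.4 and 74.4 FPKM with I1, against 93.8, 103 and 99.9 FPKM in control, so the I1 samples lay below all controls. The log2 fold change was -0.32 ± 0.13 (SE, limma adjusted p = 0.467), with an unadjusted p of 0.0395; over all alternatives it stayed below 0, between -0.43 and -0.14, with adjusted p between 0.140 and 0.966. On hg38 MYBL2 spans bases 43667019 to 43716496 of chromosome 20, plus strand. FOXM1, which drives G2 and mitotic genes with B-MYB, had 17.1, 19.8 and 15.9 FPKM with I1, against 18.4, 20.4 and 21.04 FPKM in control, a log2 fold change of -0.17 ± 0.13 (SE, limma adjusted p = 0.522). GTSE1, a microtubule-bound protein that restrains p53, had -0.14. FOXM1 and GTSE1 were lower in 3 of 3 pairs, as was MYBL2, but their groups overlapped.

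Most members moved together between the samples of a group, and by their medians only replicate 2 held the same place in both groups. Replicate 2 was the highest of its 3 samples in both groups for 43 of the 50 members, against 24.6% of all tested genes. Control replicate 1 was the lowest control for 44 members (48.2% of all tested genes), and I1 replicate 3 the lowest I1 sample for 40 (36.1%). As the median deviation from the mean of 6 libraries on the log2 scale, the members lay at -0.01, 0.26 and -0.15 in I1 replicates 1 to 3, against -0.31, 0.21 and 0.03 in control replicates 1 to 3. The range between samples of a group was thus wider than the median fold change of the members, 0.08. The same-numbered pairs did not share a direction, with member medians of 0.31, 0.07 and -0.18 in pairs 1, 2 and 3, where all tested genes had 0.09, 0.02 and 0.00. In these pairs 36, 33 and 11 members were higher with I1, against 56.5%, 54.3% and 50.2% of all tested genes.

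**Figure D3:**
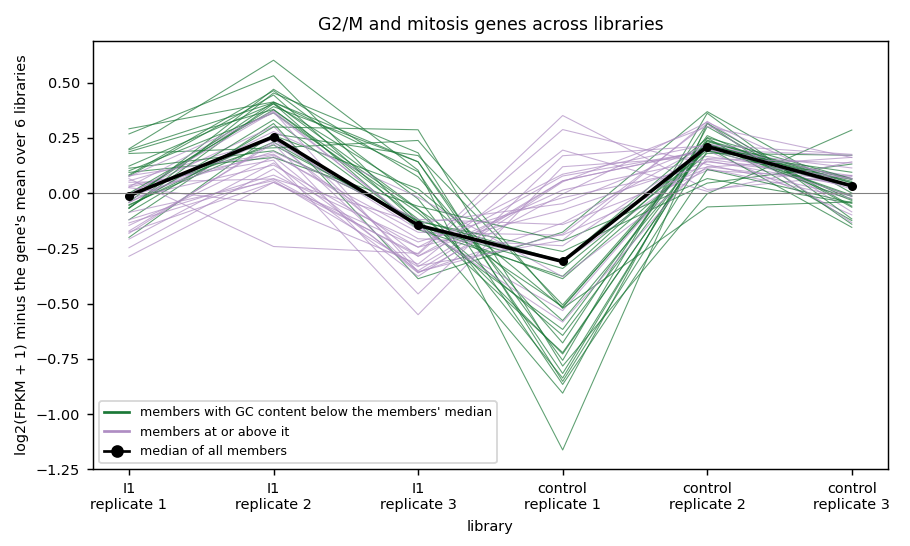
Deviation of each of the 50 genes from its own mean over the 6 libraries, in log2(FPKM + 1), for I1 replicates 1 to 3 and control replicates 1 to 3. Green lines are genes with a GC content below the median of the members, purple lines the others, and black points the median of all 50, which is highest in replicate 2 of each group (0.26 with I1 and 0.21 in control). In control replicate 1 the green lines lie far below the purple ones.

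With the replicate number as a block in the fit, 0 of 50 members were called (6 of all tested genes, 0.0504%) and the smallest adjusted p of a member was 0.140. At an unadjusted p under 0.05 there were then 15 members, 7 higher and 8 lower with I1, against 27.1% of all tested genes, which is close to the members' share. In 3 of 3 pairs 10 members were higher with I1, among them CDK1, HMMR, KIF20B, ANLN, ECT2 and SGO1, and 12 were lower, among them CDC20, CDC25B, PLK1, AURKB, MYBL2 and FOXM1. These were 32.1% and 25.8% of all tested genes, so neither count of members stood above the share in the whole table.

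Which members lay above and which below 0 followed their base composition. The 32 members above 0 had a median GC content of 41.4% (34.2 to 49.3%) in their longest transcript, and the 18 below 0 had 51.8% (43.2 to 60.5%). Across the 50 members Spearman's rho between GC content and log2 fold change was -0.895, and across 11899 tested genes -0.753; genes are not independent and share the same 6 libraries, so these are descriptions. Within the pairs rho across members was -0.873, -0.772 and -0.795, and without control replicate 1 it was -0.865. In control replicate 1 the members below the median GC content deviated by -0.62 from their mean over all libraries and the others by -0.02. KIF20B, with the lowest GC content, and MYBL2, with the highest, had log2 fold changes of opposite sign, the largest positive and the second most negative of the members.

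**Figure D4:**
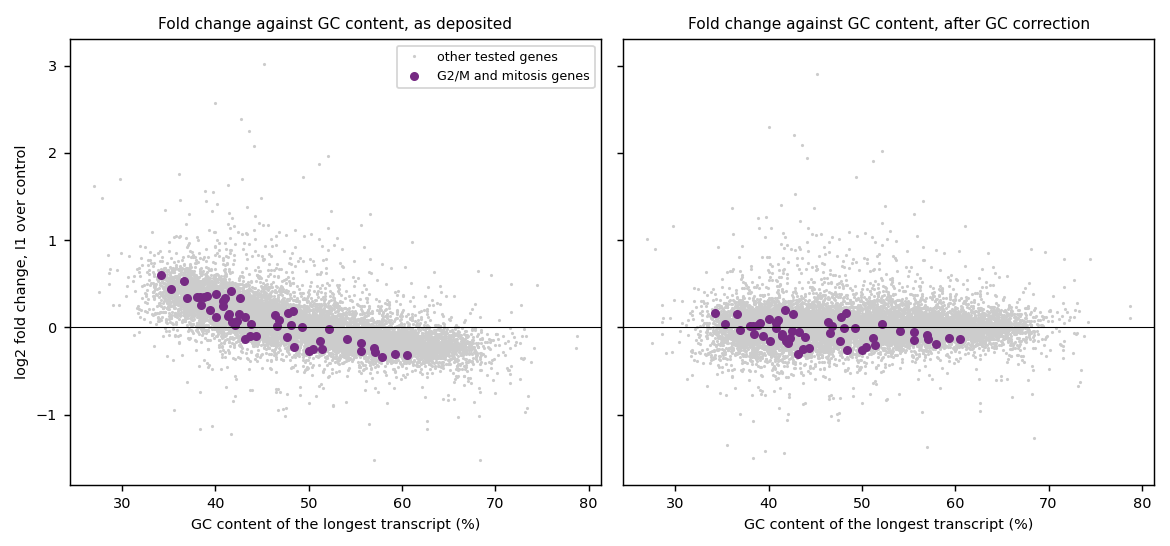
Log2 fold change, I1 over control, against the GC content of the longest transcript in percent, for the 50 genes (purple) and the other tested genes (grey), with the deposited values on the left and after a correction for GC content on the right. On the left the purple points run from 0.60 at a GC content of 34.2% (KIF20B) to -0.32 at 60.5% (MYBL2). On the right they lie between -0.30 and 0.20.

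After each library was corrected for GC content, 0 of 50 members were called, and 17 had a log2 fold change above 0 (49.5% of all tested genes) and 33 below, with a median of -0.06 where that of all tested genes was -0.00156. The sign of 17 members turned. At an unadjusted p under 0.05 there was 1 member, CKS1B, against 5.15% of all tested genes. KIF20B came to 0.17, HMMR to 0.16 and CENPE to 0.04, while CDC20 came to -0.19, CDC25B to -0.13 and MYBL2 to -0.14. The largest negative value was then that of CCNB1, -0.30, and the largest positive that of SGO1, 0.20. By role, the medians were -0.17 for the CDK1 genes, -0.15 for the passenger complex, -0.12 for the anaphase genes and -0.10 for the mitotic kinases. They were -0.06 for the spindle checkpoint, -0.05 for the transcription factors and GTSE1 and -0.0016 for the midzone genes. Above 0 were the spindle motors and organisers at 0.04, the kinetochore genes at 0.05 and the chromosome structure genes at 0.11. Spearman's rho between GC content and fold change was still -0.428 across the members and -0.00916 across all genes. The correction also removes any difference between the groups that follows GC content, and the part of GC content in the fold changes was not tested otherwise.

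The median log2 fold change of the members, 0.08 beside 0.03 over all tested genes, had no stable sign. It was -0.06 without control replicate 1, with 15 members above 0 (53.5% of all tested genes), -0.04 without I1 replicate 2, 0.18 without I1 replicate 3, 0.19 without control replicate 2 and 0.12 without control replicate 3. It was 0.01 with array weights. In each of these settings 0 members were called. At an unadjusted p under 0.05, in the limma fits, there were 0 members without I1 replicate 3 (4.02% of all tested genes), 4 without I1 replicate 2 (5.51%), 8 without control replicate 2 (17.5%), 4 with median-of-ratios scaling (10.3%), 9 with array weights (20.5%) and 6 with the replicate block and GC correction (16.1%). With single samples left out, SGO1 was at this level only without control replicate 2 or 3, and MYBL2 only without I1 replicate 2 or control replicate 1.

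**Figure D5:**
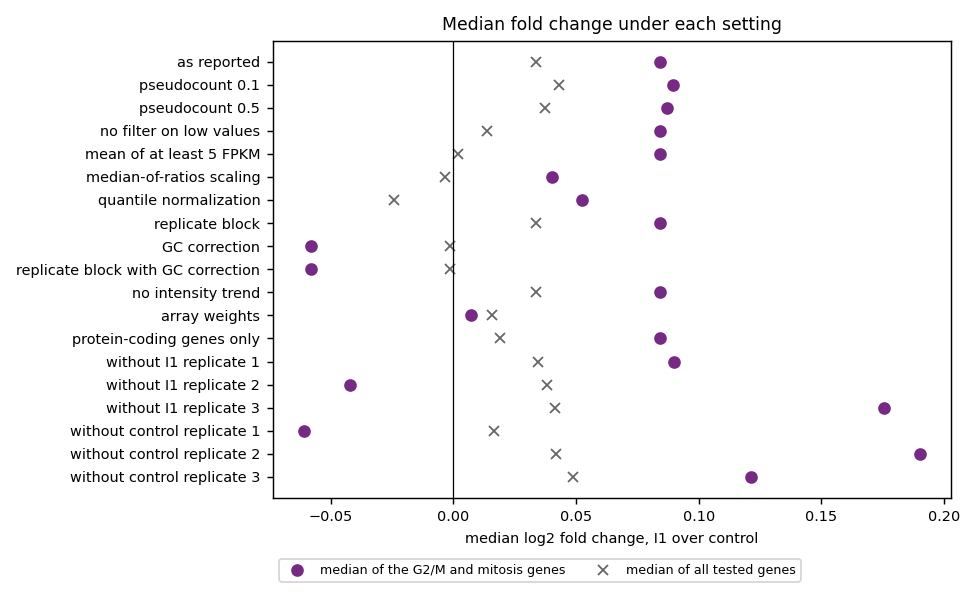
Median log2 fold change, I1 over control, of the 50 genes (purple points) and of all tested genes (grey crosses) in the reported fit and under 18 other settings. The 50 genes lie between -0.06 and 0.19 and lie below 0 with the correction for GC content, without control replicate 1 and without I1 replicate 2; 46 of the 50 were tested under the mean of at least 5 FPKM.

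The rest of the mitotic machinery was measured in 6 further lists, with DNA replication genes as a seventh for comparison. Of 119 tested genes in these 7 lists 0 rose, 0 fell and 119 did not pass by limma, with a smallest adjusted p of 0.467. At an unadjusted p under 0.05 there were 5, a smaller share than the 9.57% of all tested genes. The median log2 fold change was 0.19 for 27 other kinetochore genes, 0.16 for 8 condensin subunits, 0.06 for 28 other mitotic genes, 0.06 for 16 genes of the anaphase-promoting complex and 0.04 for 7 CDK inhibitors and WEE kinases. The 10 tested genes of MuvB, the repressor E2Fs and the pocket proteins had 0.22, with 8 above 0, and -0.03 after the GC correction. The 23 DNA replication genes had a median of -0.03, with 10 above 0; their median GC content was 50.7%, against 43.4% for the mitotic members. Without control replicate 1 the medians were 0.05 for the other kinetochore genes, 0.07 for MuvB and its partners, -0.000687 for condensin, -0.07 for the other mitotic genes, -0.01 for the anaphase-promoting complex, -0.08 for the CDK inhibitors and WEE kinases and -0.10 for DNA replication. After the GC correction the medians of the 7 lists lay between -0.03 and 0.04.

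The 2 most abundant genes of each list are given by their group means. ZWINT, a kinetochore scaffold, averaged 76.3 ± 15.1 FPKM with I1 and 75.7 ± 16.0 FPKM in control (SD, n = 3 each), and SKA2, which holds kinetochores on microtubules, 25.1 ± 3.98 FPKM with I1 and 19.1 ± 5.26 FPKM in control. NCAPD2 and NCAPH, condensin subunits, averaged 48.9 ± 3.63 FPKM with I1 and 52.2 ± 1.01 FPKM in control and 27.2 ± 2.99 FPKM with I1 and 26.6 ± 5.52 FPKM in control. TACC3, a spindle clathrin partner, averaged 31.2 ± 4.26 FPKM with I1 and 35.2 ± 2.59 FPKM in control, and CKAP5, a microtubule polymerase, 48.4 ± 4.86 FPKM with I1 and 44.3 ± 7.67 FPKM in control. The groups overlapped for each of these 6 genes.

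Of the anaphase-promoting complex, UBE2S, which extends ubiquitin chains, averaged 78.9 ± 12.4 FPKM with I1 and 94.3 ± 3.16 FPKM in control, and ANAPC5, a scaffold subunit, 24.4 ± 1.22 FPKM with I1 and 24.8 ± 1.00 FPKM in control. UBE2S had a log2 fold change of -0.27 ± 0.14 (SE, limma adjusted p = 0.467), of the same sign as UBE2C and CDC20. Of the 16 tested genes of its list 7 lay below 0 and 9 above, among them CDC27 at 0.48 and ANAPC4 at 0.40. RBBP4, a histone-binding subunit of MuvB, averaged 36.9 ± 4.10 FPKM with I1 and 32.8 ± 4.30 FPKM in control, and TFDP1, the partner of E2F proteins, 64.8 ± 8.09 FPKM with I1 and 65.3 ± 11.3 FPKM in control. CDKN1B, the CDK inhibitor p27, averaged 56.5 ± 7.91 FPKM with I1 and 51.7 ± 4.56 FPKM in control, and CDKN2C, the inhibitor p18, 44.7 ± 7.40 FPKM with I1 and 49.4 ± 4.71 FPKM in control. PCNA, the sliding clamp of replication, averaged 149 ± 16.7 FPKM with I1 and 148 ± 32.0 FPKM in control, and MCM7, a subunit of the replicative helicase, 112 ± 10.1 FPKM with I1 and 125 ± 11.7 FPKM in control. For the 8 genes given here by their group means the groups overlapped as well, and none had a limma adjusted p below 0.467.

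Some counts carry an uncertainty of assignment. Exons of 19 members overlap exons of another annotated gene, 16 of them on the other strand and 4 on the same strand (PRC1 has both kinds), where reads can be dropped or misplaced. For 13 members, among them CKS1B, UBE2C, CDC20 and AURKA, the annotation names pseudogene copies that could share reads. Whether these uncertainties apply to both groups alike was not tested, and neither was their part in the fold changes.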

How the data were processed

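Messenger RNA of 6 Kasumi-1 samples was sequenced, 3 with I1 and 3 with control. Trizol extraction was followed, per the labels' protocols, by library preparation with a stranded kit that selects polyadenylated RNA. The build hg38 and the tools HISAT2, HTSeq, Cufflinks and Trimmomatic are named per the submitters' processing notes. Their versions, roles, annotation and handling of strand were not given in the sources used here. For 29810 genes FPKM values were deposited by the authors. The table is named for different lines and a different compound, but its 6 columns match the 6 sample titles. All 6 were used, and 0 columns were left out.

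Symbols, coordinates, exon lengths and GC content (longest transcript) came from GENCODE release 29, which matched 29703 genes. FPKM times exon length gave whole reads, within 0.05 reads in all libraries, for 95.9% of matched genes, which gave the library totals. A floor of 3 reads per kilobase was 0.165 to 0.183 FPKM. Depth limits counting error only.

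limma 3.58.1 in R 4.3.3 (tables in Python 3.11.15) tested log2(FPKM + 1) with an intensity trend, 2-sided, for the 11913 genes that reached 1 FPKM in 3 or more libraries; this pseudocount understates the fold changes of low genes. The fit was also run on simulated counts without GC or replicate effects, so that run does not show how it performs on these libraries. The GC correction subtracts, per library, a lowess curve (span 0.3) of the deviations from the gene means. Same-numbered samples were taken as pairs because, across genes, correlations of their departures from the group mean were 0.476, 0.457 and 0.412. Replicates of a group differed by more than counting error, with chi-square over its degrees of freedom between 21.5 and 73.3.

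The members, lists, motifs and tests were chosen with earlier results of these data known. Values in every sample are given for the 2 most abundant members of each role and the 3 largest fold changes in each direction, and for the 2 most abundant genes of each further list, none of which passed, the group means. Alternatives are listed in the closing part. Of the 8 members with no promoter in the RefSeq table, none is shown.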

Additional observations from a re-analysis of the deposited data

How the results depend on the processing

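No member and no gene of the further lists passed the threshold in the reported fit or under any of the 18 alternatives, by limma. Members at an unadjusted p under 0.05, counted after the data were seen, numbered 2 in the reported fit. Elsewhere they numbered between 0 (without I1 replicate 3, 4.02% of all tested genes) and 15 (with the replicate block, 27.1%). They numbered 8 without control replicate 2 (17.5% of all tested genes were at this level), 4 without I1 replicate 2 (5.51%), 4 with median-of-ratios scaling (10.3%), 9 with array weights (20.5%) and 6 with the replicate block and GC correction (16.1%). The count of all tested genes past the threshold, 4, was 0 with a pseudocount of 0.1 or 0.5, without a filter, at a mean of at least 5 FPKM, with the GC correction and for protein-coding genes alone (613 to 1726 at an unadjusted p under 0.05), 2 with quantile normalization, 1 with the replicate block and GC correction, 14 with array weights, and 0 to 2 when single samples were left out. The replicate block gave 6 and changed no call of a member. The cause of these moves was not tested.

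Signs turned for 12 of the 27 members given sample by sample, of which CDK1, CCNB2 and SGO1 were added after the data were seen. With the GC correction, and equally with the block added, log2 fold changes were -0.0595 for AURKA, 0.0398 for BIRC5, -0.0439 for BUB1, -0.101 for BUB3, -0.0335 for CDK1, -0.0712 for CKS2 and -0.115 for RACGAP1. Median-of-ratios scaling gave -0.031 for AURKA and -0.009 for RACGAP1, and array weights -0.0631 for AURKA, 0.0125 for BIRC5 and -0.0255 for MKI67. With single samples left out, AURKA ranged from -0.0769 to 0.107, BIRC5 from -0.174 to 0.142, BUB1 from -0.0717 to 0.304, CCNB1 from -0.318 to 0.0329, CCNB2 from -0.249 to 0.0552, CENPA from -0.0623 to 0.315, CKS2 from -0.0545 to 0.317, MKI67 from -0.0499 to 0.320, RACGAP1 from -0.0487 to 0.104 and TPX2 from -0.0433 to 0.195. The other 15 kept their sign throughout. Where 1 group was left with 2 samples, their spread was assumed to be that of the other group. With 3 samples a group, and at least 62 reads per library for the 48 members with recovered reads, no member's fold change was separated from 0 after adjustment.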
